A study of Mus musculus with 4 samples.

Results

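The clustered protocadherins are a family of cell adhesion genes that lie side by side on mouse chromosome 18. They were chosen by name and place: every gene of the RefSeq annotation of GRCm38.p6 on chromosome 18 whose symbol begins with Pcdha, Pcdhb or Pcdhg. That gave 58 genes of the 49997 in the table. They are the 12 alternate isoforms Pcdha1 to Pcdha12, the C-type isoforms Pcdhac1 and Pcdhac2, the 22 Pcdhb genes, 12 Pcdhga and 7 Pcdhgb isoforms, and the 3 C-type isoforms Pcdhgc3 to Pcdhgc5. One of them, Pcdhgb8, is annotated as a transcribed pseudogene. The members run from 36930285 to 37841873 on chromosome 18, and all peaks from 50 kb before the lowest member to 50 kb after the highest were taken, a span of 1012 kb (chr18:36880285-37891873).

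Clustered protocadherins are transmembrane proteins of neurons that bind their own kind across cell contacts, and a neuron expresses only some of the isoforms. In the Pcdha and Pcdhg clusters each isoform has its own promoter and its own large variable first exon, which is spliced to constant exons shared by the whole cluster. A Pcdhb gene has a single coding exon and no constant part. Promoters of the alternate isoforms are chosen largely at random in each neuron, whereas C-type promoters are switched on more regularly. CTCF and cohesin, which fold chromatin into loops, bring the promoters to enhancers that lie near the Pcdha constant exons and beyond the Pcdhg cluster, and CTCF is known to bind in most alternate Pcdha promoters and again inside their variable exons.

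The study mapped accessible DNA in mouse embryonic stem cells by ATAC-seq, in which a transposase inserts adapters where chromatin is open. The groups were wt cells and cells labelled Hox-/-, a genotype that the series title describes as without any Hox function. Each had 2 libraries, made from 50k cells with a Nextera transposase, and all cells were grown in DMEM with serum, LIF, the GSK-3 inhibitor CHIR99021 and the MEK1/2 inhibitor PD0325901. The labels do not say whether the 2 libraries of a genotype came from separate cultures or clones, so any spread between them may be technical.

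Each library is given as a list of called peaks, with 213705 peaks for wt replicate 1, 216795 for wt replicate 2, 191704 for Hox-/- replicate 1 and 200214 for Hox-/- replicate 2. Several lines can share 1 interval with different summits, and each line is counted as a peak here. Distinct intervals numbered 170162, 173488, 155021 and 163714 in the same order. The lists hold no read counts. Relative depth, read from the background that the peak caller used, was 1, 0.941, 0.640 and 0.987 in the same order, so Hox-/- replicate 1 was the shallowest. The targeted loci followed the genotype labels: between the outermost genes of the 4 Hox clusters lay 178 and 181 peaks in wt, and 2 and 1 in Hox-/-. Because p-values grow with depth, the strength of a peak is given as its rank by −log10 p within its own list, in percent of the listed peaks, where 0% is the strongest and 100% the weakest. Values are given with replicate 1 before replicate 2, wt first. A percent rank also depends on the length of its list, and the Hox-/- lists were shorter, by 0.14 in mean log2 length. An order of the genotypes is therefore stated for a gene only where it held both by percent rank and by place in the list, a comparison added after the data were seen. Elsewhere the genotypes are said to overlap, meaning on 1 or both of these scales. Of the markers of embryonic stem cells, 8 of 8 with a known strand had a peak at the start in all 4 libraries, Sox2 and Zfp42 among them. Of the fibroblast markers, 3 of 7 did, and none of the 7 was among the 50000 strongest peaks of any library. Neural markers were called in all 4 libraries in 7 of 8, where 58.2% of all protein-coding starts were.

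Most protocadherin starts were listed as open, but few were strong. A peak summit lay within 500 bp of the start of 50 and 49 of the 58 members in wt and of 47 and 45 in Hox-/-. The background was 61.3%, 61.5%, 60.4% and 60.8% of 17491 protein-coding gene starts in the same libraries. A background start is the outer annotated end of its gene, so a peak at any other promoter of that gene was not counted. Called in all 4 libraries were 44 of 58 members, where 58.2% of all starts were, and 7 members had no peak at the start in any library, where 36.2% of all starts had none. Those 7 were Pcdhb5, Pcdhb7, Pcdhb9, Pcdhb14, Pcdhb18, Pcdhb21 and Pcdhgc5. Fewer were strong: 11 of the 58 member starts were among the 50000 strongest peaks in each library, whereas 43.7% to 44.1% of all starts were. The median rank over members, with unlisted starts placed last, was 47.5% to 54.0%, against 36.2% to 39.97% over all starts.

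**Figure D1:**
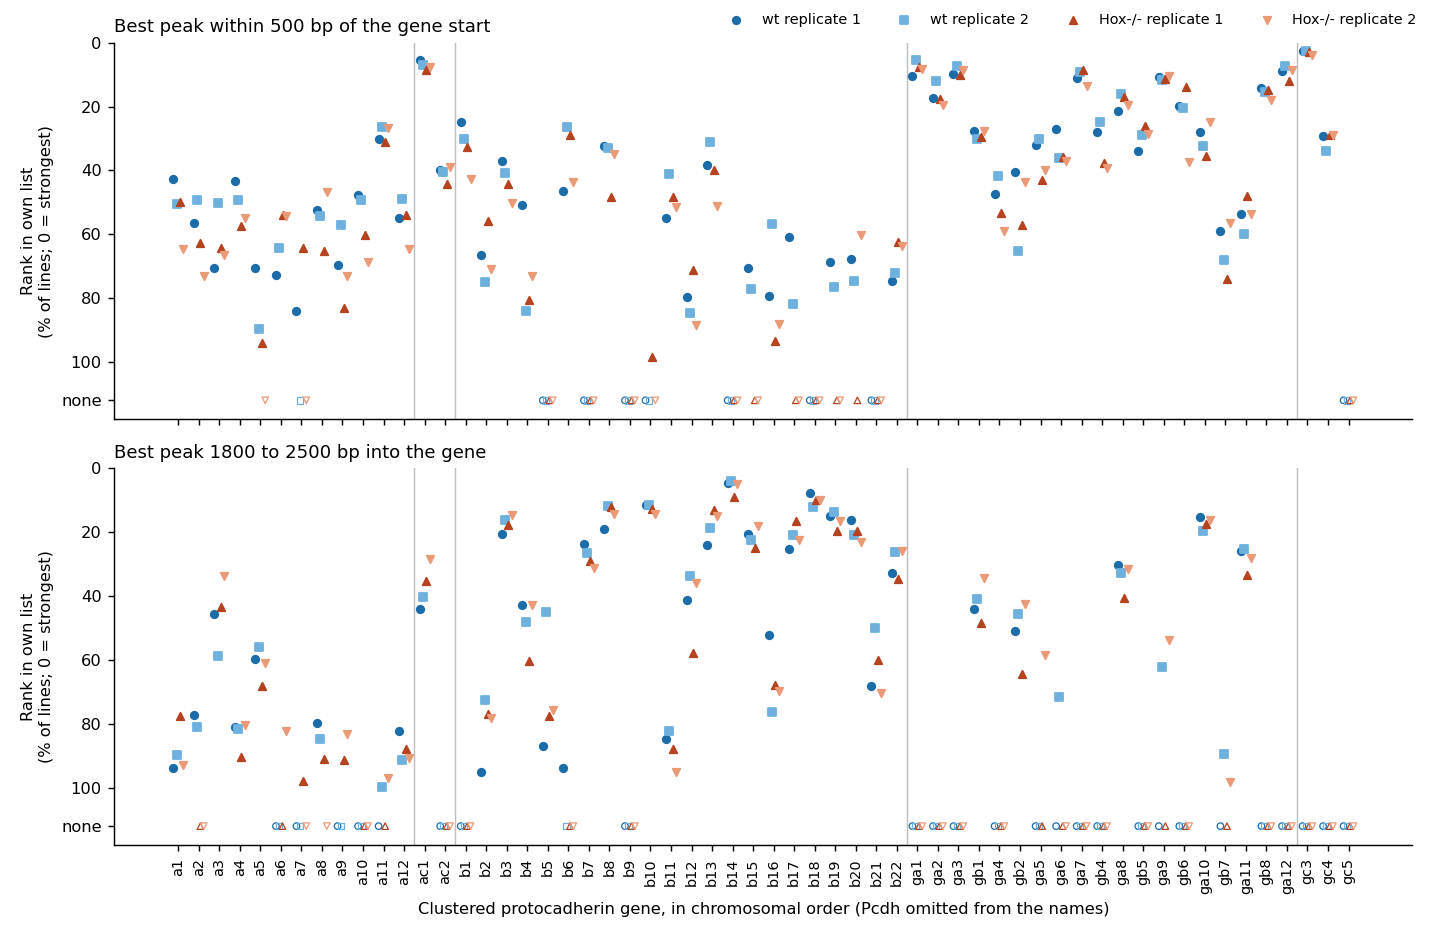
Rank of the best peak of each clustered protocadherin gene in each library, within 500 bp of the start (upper panel) and 1800 to 2500 bp into the gene (lower panel). The vertical axis is the rank in percent of the listed peaks, with the strongest at the top and open symbols on the line "none" for genes without a listed peak; each symbol shape is 1 of the 4 libraries, and grey lines separate Pcdha, Pcdhac, Pcdhb, the alternate Pcdhg isoforms and Pcdhgc. Pcdhac1, Pcdhgc3 and several Pcdhga genes stand at the top of the upper panel, and most Pcdhb genes rise from the bottom of the upper panel to the middle or top of the lower one.

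The C-type isoforms held both the strongest member start and the only Pcdhg start without a peak. Pcdhgc3, the first C-type isoform of the Pcdhg cluster, had the best-ranked start of all 58 members, at 2.55% and 2.62% in wt and 2.81% and 3.92% in Hox-/-. Its fold over background was 14.9 and 15.0 in wt and 14.4 and 13.2 in Hox-/-. It was the top member start in every library, and its weakest rank was that in Hox-/- replicate 2. Pcdhac1, a C-type isoform with its own promoter, ranked at 5.38% and 7.13% in wt and 8.50% and 7.76% in Hox-/-. Its fold was 19.2 and 19.3 in wt and 16.4 and 16.9 in Hox-/-, the highest fold of any member start in each library, and the summit lay at −187, −182, −187 and −193 bp from the annotated start. Both wt libraries ranked above both Hox-/- libraries at Pcdhac1, narrowly: the places in the list were 11508 and 15457 in wt and 16293 and 15544 in Hox-/-. At Pcdhgc3 they were 5457, 5687, 5387 and 7858, and the genotypes overlapped. The other C-type isoforms were weaker. Pcdhac2 ranked at 39.9% and 40.6% in wt and 44.4% and 38.9% in Hox-/-, and Pcdhgc4 at 29.2% and 33.9% in wt and 29.0% and 28.8% in Hox-/-, with overlapping genotypes at Pcdhac2 and both Hox-/- libraries slightly above wt at Pcdhgc4. At Pcdhgc5, the last isoform before the Pcdhg constant exons, no library listed a peak within 500 bp of the start or anywhere in the first 2500 bp. C-type members thus ranged from the top of the family to unlisted.

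The 12 alternate Pcdha isoforms were called almost throughout, at middling to weak ranks. Starts were called in 12, 11, 12 and 10 of 12, and 10 were called in all 4 libraries. No alternate Pcdha start was among the 50000 strongest peaks of any library, and the median rank was 50.3% to 65.5%. The best within 500 bp of the start was Pcdha11, at 30.1% and 26.3% in wt and 31.0% and 26.7% in Hox-/-, with a fold of 7.58 and 8.37 in wt and 7.18 and 8.46 in Hox-/-. Within that limit its worst library ranked better than the best library of every other alternate Pcdha start, but Pcdha7 and Pcdha4 had stronger peaks just past the limit, described next. Pcdha4 followed at 43.2% and 49.1% in wt and 57.4% and 55.0% in Hox-/-, Pcdha1 at 42.6% and 50.5% in wt and 50.0% and 64.5% in Hox-/-, and Pcdha10 at 47.7% and 49.3% in wt and 60.3% and 68.7% in Hox-/-. At Pcdha4 and Pcdha10 both wt libraries ranked above both Hox-/- libraries, and at Pcdha1 the genotypes overlapped. Pcdha12 ranked at 55.0% and 49.0% in wt and 53.8% and 64.5% in Hox-/- and Pcdha8 at 52.4% and 54.4% in wt and 65.3% and 46.8% in Hox-/-. Pcdha2 ranked at 56.4% and 49.3% in wt and 62.6% and 73.2% in Hox-/-. Genotypes overlapped at Pcdha12, Pcdha8 and Pcdha2. Pcdha3 ranked at 70.6% and 50.2% in wt and 64.2% and 66.5% in Hox-/-, Pcdha9 at 69.5% and 57.2% in wt and 83.0% and 73.2% in Hox-/-, and Pcdha6 at 72.7% and 64.1% in wt and 53.8% and 54.4% in Hox-/-. Genotypes overlapped at Pcdha3 and Pcdha9, and Pcdha6 was the 1 alternate Pcdha gene at which both Hox-/- libraries ranked above both wt libraries. The remaining pair was not called everywhere: Pcdha5 was missing in Hox-/- replicate 2, and Pcdha7 was listed in wt replicate 1 and Hox-/- replicate 1 alone.

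Inside the Pcdha genes the peaks had a second preferred place, 400 to 599 bp past the start. A summit lay there in 10, 11, 9 and 7 of the 12 alternate isoforms, and in all 4 libraries in 7 of 12, where the same window was called in 6.98% of all starts. No Pcdhb and no Pcdhg member had a summit in that window in all 4 libraries. The window was set after the positions had been seen, so its counts are a description. Pcdha7 had the strongest of these internal peaks, at 16.7% and 13.1% in wt and 12.6% and 13.2% in Hox-/-. Thus the gene with the least reproducible start of the group carried its best-ranked internal peak. Pcdha4 came next at 25.9% and 19.7% in wt and 22.2% and 20.4% in Hox-/-, again above its own start in every library. The others called in all 4 libraries were weaker. Pcdha11 ranked at 60.5% and 54.2% in wt and 41.7% and 64.4% in Hox-/-, and Pcdha8 at 52.4% and 54.4% in wt and 65.3% and 46.8% in Hox-/-. Pcdha12 ranked at 77.3% and 65.6% in wt and 71.1% and 64.5% in Hox-/-. Pcdha1 ranked at 49.8% and 55.8% in wt and 50.0% and 80.6% in Hox-/-, and Pcdha9 at 77.3% and 64.1% in wt and 58.9% and 73.2% in Hox-/-. At Pcdha8 the internal summit is also the 1 counted for the start, since it lies 425 to 476 bp in and the start window reaches 500 bp. The narrow window just before the start, from −200 to −1 bp, held a summit in all 4 libraries in 7 of the 12 alternate isoforms, where 28.9% of all starts had one.

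The 22 Pcdhb genes had the weakest starts of the family. A start peak was listed in 15, 15, 12 and 12 of the 22, that is 68.2% in each wt library (95% Clopper-Pearson interval 45.1% to 86.1%) and 54.5% in each Hox-/- library (32.2% to 75.6%). These intervals cover counting error only. No Pcdhb start was among the 50000 strongest peaks in any library, and the median rank was 69.6% and 76.8% in wt and 95.9% and 88.1% in Hox-/-. In 11 of 22 the start was called in all 4 libraries. The best of these in its worst library was Pcdhb1, which stands apart from the others at the front of the cluster, at 25.0% and 30.2% in wt and 32.6% and 42.7% in Hox-/-. Pcdhb6 ranked at 46.6% and 26.3% in wt and 29.0% and 43.6% in Hox-/-, Pcdhb8 at 32.4% and 33.1% in wt and 48.4% and 34.8% in Hox-/-, and Pcdhb13 at 38.2% and 31.0% in wt and 39.9% and 51.1% in Hox-/-. The genotypes overlapped at Pcdhb1, Pcdhb8 and Pcdhb13, and at Pcdhb6 the replicates of each genotype differed by more than the genotypes did. Pcdhb3 ranked at 36.9% and 40.9% in wt and 44.3% and 50.3% in Hox-/- and Pcdhb11 at 55.0% and 41.2% in wt and 48.4% and 51.6% in Hox-/-. Pcdhb2 ranked at 66.5% and 74.8% in wt and 55.8% and 70.9% in Hox-/-. The genotypes overlapped at all 3. Pcdhb22, the last of the cluster, ranked at 74.6% and 72.2% in wt and 62.4% and 63.5% in Hox-/-, with both Hox-/- libraries above wt. Pcdhb4 ranked at 50.9% and 84.1% in wt and 80.5% and 73.2% in Hox-/-, Pcdhb12 at 79.7% and 84.7% in wt and 71.1% and 88.3% in Hox-/-, and Pcdhb16 at 79.2% and 56.6% in wt and 93.4% and 88.0% in Hox-/-. These last 3 ranked past 50% in every library, and only at Pcdhb16 were both wt libraries above both Hox-/- libraries.

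The main open site of most Pcdhb genes lay instead near 2 kb into the gene. A summit 1800 to 2500 bp past the start was listed in 20, 19, 19 and 19 of the 22 Pcdhb genes, and in all 4 libraries in 19 of 22. Over all protein-coding starts that window was called in 5.84% in all 4 libraries, and in 8.44%, 8.38%, 7.25% and 7.97% in the single libraries. This window too was chosen after the peak positions had been seen, and no test was made on it. Windows of equal length elsewhere held fewer Pcdhb peaks. In all 4 libraries, 1 of 22 genes had one 900 to 1600 bp in (11.4% of all starts), 0 of 22 at 2600 to 3300 bp (5.20%), and 2 of 22 from 2500 to 1800 bp before the start (4.49%). In the 19 genes the summit lay 1850 to 2404 bp from the start, with a median of 2162 bp and an SD of 128 bp. Measured from the other end of the gene the same summits lay 348 to 3134 bp away, with an SD of 785 bp, while the annotated genes were 2340 to 5271 bp long. The window itself bounds the spread measured from the start, so the 2 spreads are not compared.

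**Figure D2:**
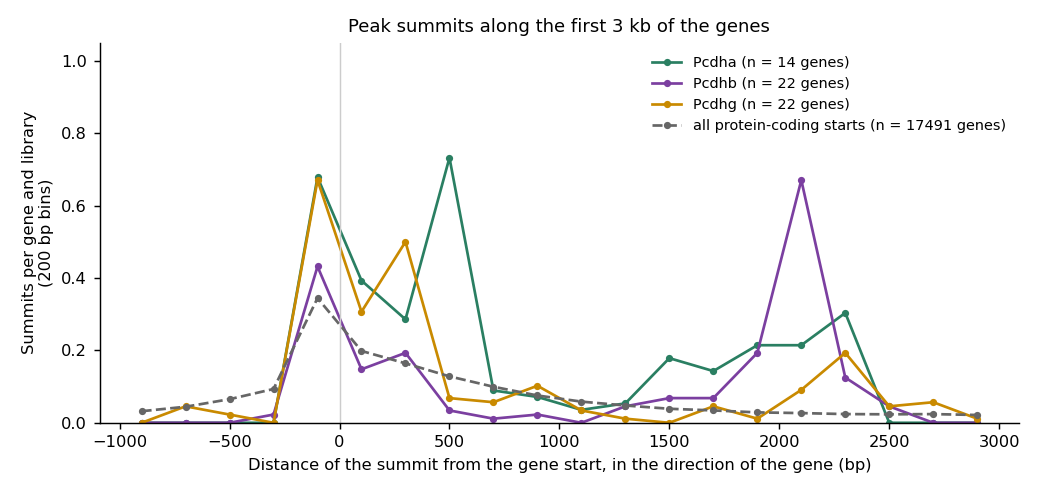
Number of peak summits per gene and library in 200 bp bins from 1 kb before to 3 kb past the gene start, for the Pcdha (14 genes), Pcdhb (22) and Pcdhg (22) clusters and, dashed, for 17491 protein-coding starts. All 3 clusters have a maximum just before the start; Pcdha has another in the bin from 400 to 599 bp, Pcdhg one from 200 to 399 bp, and Pcdhb its highest from 2000 to 2199 bp, where the dashed line is near its floor.

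The internal Pcdhb peaks were also the stronger ones. Their median rank over the 22 genes was 26.3% to 31.8%, and 8, 10, 10 and 10 of them were among the 50000 strongest peaks, where no Pcdhb start was. The share over all genes in this window at that limit was not taken. In 16 of 22 Pcdhb genes the internal peak outranked the start, or was listed where the start was not, in all 4 libraries; over all protein-coding starts this held for 3.35%. Pcdhb14 had the strongest, at 4.64% and 3.86% in wt and 8.89% and 4.93% in Hox-/-, with a fold of 18.2 and 18.5 in wt and 14.3 and 18.6 in Hox-/-, and had no peak at the start in any library. Pcdhb18, likewise without a start peak, ranked at 7.58% and 12.1% in wt and 9.99% and 9.78% in Hox-/-. Pcdhb10, whose start was listed in Hox-/- replicate 1 alone, ranked at 11.5% and 11.5% in wt and 12.8% and 14.2% in Hox-/-. In these 3 genes the open site inside the gene ranked at 14.2% or better in every library, while the start was unlisted or near the end of the list.

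Several other Pcdhb genes had the same order at a lower level. Pcdhb8 had its internal peak at 19.0% and 11.8% in wt and 12.1% and 14.4% in Hox-/-, Pcdhb3 at 20.6% and 16% in wt and 17.6% and 14.5% in Hox-/-, and Pcdhb19 at 14.9% and 13.8% in wt and 19.6% and 16.3% in Hox-/-. In each library the internal peak ranked above the start, or the start was unlisted, as that of Pcdhb19 was in both Hox-/- libraries. Pcdhb13 had it at 24.1% and 18.6% in wt and 13.1% and 14.9% in Hox-/-, Pcdhb20 at 16.1% and 20.7% in wt and 19.6% and 23.1% in Hox-/-, and Pcdhb15 at 20.6% and 22.2% in wt and 25.0% and 18% in Hox-/-. Pcdhb17 ranked at 25.2% and 20.8% in wt and 16.4% and 22.3% in Hox-/-, Pcdhb7 at 23.7% and 26.3% in wt and 29.0% and 31.1% in Hox-/-, and Pcdhb22 at 32.7% and 26.3% in wt and 34.5% and 25.9% in Hox-/-. Weaker internal peaks were listed at Pcdhb4, Pcdhb12, Pcdhb16, Pcdhb21, Pcdhb2, Pcdhb5 and Pcdhb11, the last at 84.6% and 82.2% in wt and 87.9% and 95.1% in Hox-/-. At 3 of these the order was not the same throughout: the start ranked above the internal peak in all 4 libraries at Pcdhb11, in 3 at Pcdhb2 and in 1 at Pcdhb16. Only Pcdhb1, Pcdhb6 and Pcdhb9 lacked an internal peak in 1 or more libraries. Pcdhb6 had a weak one in wt replicate 1 alone, and Pcdhb1 instead had a region 1297 bp from its start, at 30.8% and 41.0% in wt and 33.8% and 40.02% in Hox-/-. Pcdhb9 had no listed peak at all over its length. Whether reads that fit more than 1 of these similar genes were kept or dropped is not given in the sources used here, and its part in these counts was not tested.

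The alternate Pcdhg isoforms were called at every start, as were the 2 Pcdhac isoforms, but their ranks were widely spread. All 12 Pcdhga and all 7 Pcdhgb starts were called in all 4 libraries. Their median rank was 13.9% to 19.5% in Pcdhga and 28.1% to 37.3% in Pcdhgb. Among the 50000 strongest peaks were 7, 7, 7 and 8 of 12 Pcdhga starts, and 2, 2, 2 and 1 of 7 Pcdhgb starts. The 2 isoform groups are interleaved along the chromosome, but the first 3 starts and the last are all Pcdhga. At the top stood Pcdhga1, the first isoform of the cluster, at 10.5% and 5.35% in wt and 7.67% and 8.36% in Hox-/-. Pcdhga3 ranked at 9.86% and 7.17% in wt and 10.2% and 8.48% in Hox-/- and Pcdhga12, the last alternate Pcdhga isoform, at 8.96% and 7.41% in wt and 12.1% and 8.62% in Hox-/-. Pcdhga7 and Pcdhga9 were close to them, the former at 11% and 9.24% in wt and 8.56% and 13.7% in Hox-/-. Pcdhga9 ranked at 10.7% and 11.6% in wt and 11.4% and 10.3% in Hox-/-. At all 5 the genotypes overlapped, and the order of the 5 genes changed from library to library.

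A middle group followed. Pcdhga2 ranked at 17.3% and 11.9% in wt and 17.8% and 19.4% in Hox-/-. Pcdhga8 ranked at 21.5% and 16% in wt and 17.1% and 19.6% in Hox-/-, and Pcdhga6 at 27.1% and 36.2% in wt and 35.7% and 36.9% in Hox-/-. In these 3 the genotypes overlapped. Pcdhga10 ranked at 28.1% and 32.2% in wt and 35.6% and 24.9% in Hox-/- and Pcdhga5 at 32.1% and 30.1% in wt and 43.1% and 39.97% in Hox-/-. Pcdhga5 was lower in both Hox-/- libraries than in wt. The weakest Pcdhga starts were Pcdhga4, at 47.3% and 41.6% in wt and 53.3% and 58.9% in Hox-/-, and Pcdhga11, at 53.6% and 59.8% in wt and 47.9% and 53.6% in Hox-/-. Pcdhga4 was lower in both Hox-/- libraries, and Pcdhga11 overlapped. Of the Pcdhgb isoforms, the pseudogene Pcdhgb8 had the best start in its worst library, at 14.1% and 15.3% in wt and 14.9% and 17.8% in Hox-/-. Pcdhgb6 ranked at 19.7% and 20.6% in wt and 13.8% and 37.3% in Hox-/-, and the gap between its Hox-/- replicates, 1.44 on the log2 scale, was wider than at any other member called in all 4 libraries. The transcribed pseudogene thus ranked better in its worst library than any other Pcdhgb isoform in its own. Pcdhgb5 ranked at 33.8% and 29.0% in wt and 26.2% and 28.5% in Hox-/-, Pcdhgb1 at 27.6% and 30.1% in wt and 29.4% and 27.8% in Hox-/-, and Pcdhgb4 at 28.1% and 24.9% in wt and 37.5% and 39.2% in Hox-/-. Both Hox-/- libraries ranked above wt at Pcdhgb5 and below wt at Pcdhgb4, and the genotypes overlapped at Pcdhgb1. Pcdhgb2 ranked at 40.4% and 65.3% in wt and 57.1% and 43.5% in Hox-/- and Pcdhgb7 at 58.8% and 67.9% in wt and 73.9% and 56.6% in Hox-/-. Pcdhgb7 was the weakest alternate Pcdhg start in 3 of 4 libraries, and in Hox-/- replicate 2 Pcdhga4 was weaker. A region 853 bp past the Pcdhgb7 start, outside the start window, was stronger, at 28.9% and 20.6% in wt and 35.7% and 34.5% in Hox-/-.

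Further peaks were also listed inside the Pcdhg genes. A summit 200 to 399 bp past the start, a window also set after the positions had been seen, was listed in all 4 libraries in 7 of 22 Pcdhg members. It was listed in 2 of 22 Pcdhb members and 9.64% of all starts, and no test was made. In the window 1800 to 2500 bp in, 3 of 12 Pcdhga, 2 of 7 Pcdhgb and 0 of 3 Pcdhgc members were called in all 4 libraries, along with 5 of 12 alternate Pcdha isoforms and Pcdhac1. Over the whole family that made 30 of 58. Pcdhga10 and Pcdhga11 were the only Pcdhg members whose peak in that window outranked the start in all 4 libraries. In Pcdhga10 it ranked at 15.2% and 19.6% in wt and 17.4% and 16.3% in Hox-/-, and in Pcdhga11 at 26.0% and 25.3% in wt and 33.5% and 28.2% in Hox-/-. The only Pcdha member of that kind in the same window was Pcdha5, at 59.5% and 55.8% in wt and 68.1% and 60.8% in Hox-/-. These 3 genes and the 16 Pcdhb genes were the 19 members with that order in the window 1800 to 2500 bp in. Peaks elsewhere in a gene could also outrank its start, as those of Pcdha4, Pcdha7 and Pcdhgb7 did.

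**Figure D3:**
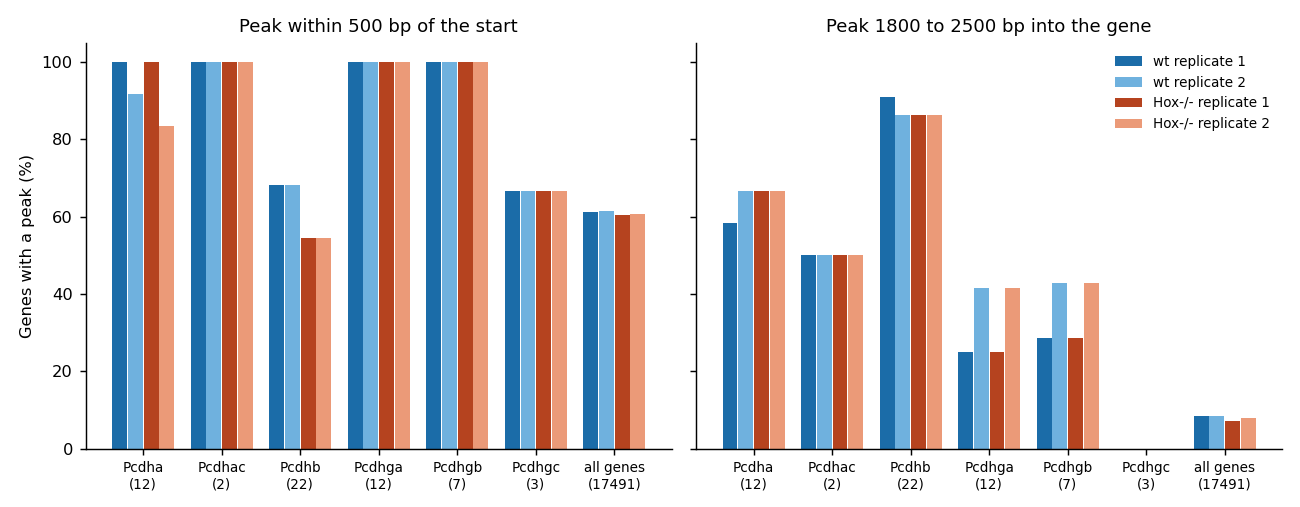
Share of genes in each subcluster with a peak within 500 bp of the start (left) and 1800 to 2500 bp into the gene (right), with 1 bar per library and the number of genes in brackets; "all genes" is the 17491 protein-coding starts. On the left Pcdhb is the lowest subcluster in Hox-/- and the 3 Pcdhgc genes are the lowest in wt. On the right Pcdhb is the highest, at 86.4% or more in each library.

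Fold and p-value ordered the Pcdhg starts differently, and the background against which the peak caller set each summit also varied along the clusters. The median over Pcdha starts, and that over Pcdhb starts, was 0.719 to 0.783 times the median of the list in the 4 libraries. The median over Pcdhga starts was 1.35 to 1.58 times that of the list, and that over Pcdhgb starts 1.53 to 1.82 times, while single starts varied. At Pcdhgc4 it was 18.2 and 16.7 in wt and 12.3 and 17.8 in Hox-/-, and at Pcdhgc3 it could be recovered in the Hox-/- libraries alone. Pcdhga12 is an example: the background was 32.6 and 32.7 in wt and 22.5 and 31.5 in Hox-/-, against list medians of 10.1, 9.42, 6.64 and 9.82. By construction, a pileup of a given height has a smaller fold over a higher background. By p-value Pcdhga12 was at 8.96% and 7.41% in wt and 12.1% and 8.62% in Hox-/-, whereas its fold, 7.95 and 8.55 in wt and 6.98 and 8.03 in Hox-/-, placed it at 21.5%, 19.6%, 27.8% and 20.7% of the lists. The reverse held at Pcdhac1, whose background was near the list median and whose fold placed it at 1.03%, 1.13%, 2.73% and 2.33%. Ranks of Pcdhg starts therefore sit beside a raised background over that cluster, and its part in their ranks was not tested.

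Counted over the first exon rather than the start, nearly every member was open. With the first 2500 bp taken as the first exon, and the whole gene for Pcdhb, 56 of 58 members were overlapped by a peak in each library and in all 4. Over all protein-coding genes, 66.9% had a peak over the first 2500 bp in all 4 libraries. The exceptions were Pcdhb9 and Pcdhgc5. With peaks limited to the 100000 strongest of each list, 38 of 58 members had one in all 4 libraries. The share over all genes at that limit was not taken, so this count has no background beside it.

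The span as a whole, with the peaks of the genes themselves included, was denser in replicated peaks than the chromosome. Peaks that overlapped were merged into 163 regions, of which 113 (69.3%) were called in all 4 libraries, where 59.0% of the 208211 regions of the genome were. That is 11.2 regions per 100 kb, against 4.49 over chromosome 18 and 5.00 over the autosomes. The density varied along the span. There were 23.3 per 100 kb within Pcdhg, 12.1 within Pcdhb and 9.67 within Pcdha, but 1.31 between Pcdha and Pcdhb and 0 in the 50 kb before Pcdha. The 140.4 kb between Pcdhb and Pcdhg had 5.70 and the 50 kb after Pcdhg had 12.0. Of the 113 regions, 60 were distal, with no summit within 1 kb of a member start or of either end of another gene. The window 1800 to 2500 bp into a member accounted for 31 of these, and 29 lay elsewhere.

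Among distal regions, the strongest lay after Pcdhg and between Pcdhb and Pcdhg. The top region in its worst library, chr18:37859796-37860684, lies 40.7 kb past the start of Pcdhgc5, inside the gene Diaph1, which encodes an actin-nucleating formin. It ranked at 1.68% and 1.25% in wt and 1.29% and 2.03% in Hox-/-, with a fold of 13.8 and 14.6 in wt and 15.5 and 13.6 in Hox-/-. A second region in Diaph1, chr18:37851991-37852534, lies 32.7 kb past the same start and ranked at 3.58% and 4.84% in wt and 3.53% and 5.22% in Hox-/-. Both are in the stretch beyond Pcdhg where enhancers of the cluster are known to lie, though the lists themselves do not tell an enhancer from another open site. The region chr18:37567921-37568892, 50.0 kb past the start of Pcdhb22, ranked at 2.87% and 2.05% in wt and 1.99% and 2.91% in Hox-/-, with a fold of 19.6 and 20.7 in wt and 19.8 and 19.6 in Hox-/-. The region chr18:37655463-37656110, 5.88 kb before Pcdhga1, ranked at 3.64% and 2.37% in wt and 4.86% and 4.57% in Hox-/-. The fifth, chr18:37822446-37823031, is 3.13 kb past the start of Pcdhgc5, within the Pcdhg cluster, and ranked at 4.51% and 4.74% in wt and 6.78% and 3.66% in Hox-/-. All 5 were in the strongest 7% of every list, and each was above every alternate Pcdha and every Pcdhb start. Pcdhgc5 thus had a strong open site close by and none at its own start.

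The other distal regions outside the internal window were most numerous within Pcdhg, which held 12 of the 29. The best of them after the region near Pcdhgc5, chr18:37767952-37768491, lies 2.71 kb past the start of Pcdhga12 and ranked at 10.4% and 10.9% in wt and 8.52% and 10.4% in Hox-/-. The region chr18:37771435-37771871, 6.07 kb past the same start, ranked at 17.2% and 16.8% in wt and 14.3% and 13.3% in Hox-/-. Both lie between the last alternate isoform and the C-type isoforms and are stronger than the Pcdha regions that follow. Within Pcdha, 5 distal regions outside the internal window lay from 20.6 to 34.8 kb past the start of Pcdhac2, towards the shared end of the cluster. The best of them, chr18:37165136-37165936, ranked at 19.1% and 17.1% in wt and 25.4% and 17.7% in Hox-/-, and the region at chr18:37178214-37178853 at 25.6% and 29.7% in wt and 20.9% and 36.2% in Hox-/-. Both were weaker than the 2 Diaph1 regions above in every library. The 76.1 kb between Pcdha and Pcdhb held 1 replicated region, chr18:37217696-37218510, at 17.9% and 16.8% in wt and 13.8% and 22.4% in Hox-/-. In the gap between Pcdhb and Pcdhg, chr18:37543496-37544342 ranked at 8.63% and 7.61% in wt and 6.21% and 6.28% in Hox-/- and chr18:37618426-37619074 at 6.57% and 4.97% in wt and 8.59% and 10.5% in Hox-/-. Taf7, a gene of the general transcription machinery in that gap, had a peak at its higher end that ranked at 2.79%, 1.16%, 2.19% and 1.29%. Just before the shared end of the Pcdhg cluster, chr18:37840470-37841178 ranked at 3.57% and 4.10% in wt and 5.26% and 2.36% in Hox-/-. It lies within 1 kb of that end and was not counted as distal. After Pcdhg, 3 further regions within Diaph1 ranked from 7.92% to 25.3%. Asking for 2500 bp between a summit and any start removed the 31 internal regions and 4 others and left 25 distal regions of 60.

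**Figure D4:**
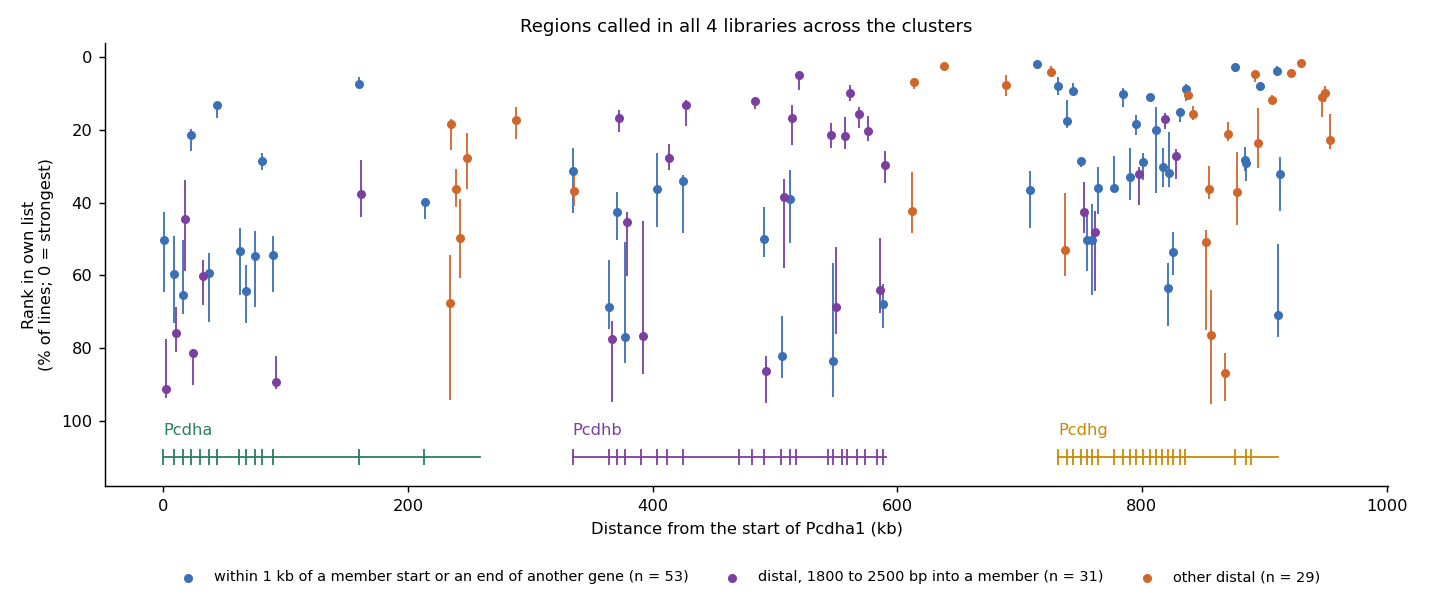
Regions called in all 4 libraries along the protocadherin clusters, by distance from the start of Pcdha1 in kb. Each point is the median rank over the 4 libraries in percent of the listed peaks, with the strongest at the top and a bar from the best to the worst library, and the ticks at the bottom are the starts of the 58 members; 53 regions lie near a start or gene end, 31 in the window 1800 to 2500 bp into a member and 29 elsewhere. The strongest distal points lie between Pcdhb and Pcdhg and to the right of Pcdhg, and the Pcdhb block is filled by the internal peaks.

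The genotypes were then compared. Peaks in the span numbered 191 and 204 in wt and 186 and 174 in Hox-/-. Per 100000 listed peaks these were 89.4 and 94.1 in wt and 97.0 and 86.9 in Hox-/-, with means of 91.7 ± 3.34 (SD, n = 2) for wt and 92.0 ± 7.15 (SD, n = 2) for the mutant cells. The Hox-/- mean was higher by 0.229, with both Hox-/- libraries outside the wt range on opposite sides (two-sided exact permutation test, p = 1). The wt libraries averaged 49.5 ± 0.707 (SD, n = 2) members with a start peak, against 46.0 ± 1.41 (SD, n = 2) for the mutant cells. Both wt values were above both Hox-/- values, which in a design of 2 against 2 gives the smallest p an exact permutation test allows, 0.333, so that no difference here could pass 0.05. All starts together showed the same order at a smaller size, as the background percentages above give. Among the 100000 strongest peaks of each list the members numbered 28 and 27 in wt and 28 and 25 in Hox-/-, so that the genotypes overlapped (two-sided exact permutation test, p = 1). Among the 50000 strongest they numbered 11 in every library.

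The member starts listed in wt alone were 3 Pcdhb starts. Pcdhb15 ranked at 70.6% and 77.1% in wt, Pcdhb17 at 61.0% and 81.8%, and Pcdhb19 at 68.5% and 76.6%, and none was listed in a Hox-/- library. That is 3 of 58 members, where 0.526% of all starts were called in both wt and in neither Hox-/- library. No member was called in both Hox-/- libraries and in neither wt library, where 0.166% of all starts were. All 3 are weak peaks, outside the 100000 strongest of both wt lists. Among the 100000 strongest peaks of each list 0 members were called in wt alone. The 3 genes lie close together in the second part of the Pcdhb cluster. Among starts of any gene called in both wt libraries with both ranks past 60%, 12.9% (65 of 504) were in neither Hox-/- library. Among members the same limit left 9 starts, and 3 of the 9 (33.3%) were in neither Hox-/- library. At all 3 genes the internal peak was called in all 4 libraries. Relative depth was 0.640 and 0.987 in the Hox-/- libraries, and its part in these calls was not tested.

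Merged regions were compared in the same way. Of 163 regions, 8 (4.91%) were called in both wt and in neither Hox-/- library, where 3.83% of all regions were. In the other direction there was 1 region (0.613%), where 1.23% of all regions were. The best rank among the 8 was 54.0%, and the single Hox-/- region, within Pcdha9, ranked at 91.1% and 83.2%. Shares this near the background show nothing particular to the protocadherins. Among the 44 members called at the start in all 4 libraries, both wt libraries ranked above both Hox-/- libraries in 15 (34.1%) and below in 4 (9.09%), and 25 overlapped. Over all starts called in all 4 libraries those shares were 28.5% and 11%. These are percent ranks. By place in the list wt ranked above in 7 of the 44 (15.9%) and Hox-/- in 9 (20.5%), against 16.8% and 19.9% over all starts, so the excess of wt was not seen on that scale. The 7 were Pcdhac1, Pcdha4, Pcdha10, Pcdhb16, Pcdhga4, Pcdhga5 and Pcdhgb4, and they were among the 15. Hox-/- ranked above on both scales at Pcdha6, Pcdhb22, Pcdhgb5 and Pcdhgc4. Among the 113 regions wt ranked above in 26 (23.0%) and Hox-/- in 11 (9.73%), against 31.3% and 11.8% over all regions. By place in the list the numbers were 13 and 24, or 11.5% and 21.2%, against 19.6% and 21.5% over all regions.

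The median log2 rank over the 113 regions was 4.92 and 4.91 in wt and 5.08 and 5.07 in Hox-/-, where a higher value is a weaker rank. The shift is given as wt minus Hox-/-, so that a negative value is a weaker rank in Hox-/-. It was −0.16 and had the smallest p possible (two-sided exact permutation test over the 4 libraries, p = 0.333). Over all 122787 regions called in all 4 libraries the shift was −0.14. List length alone gives −0.14. By place in the list the medians were 15.98, 15.996, 15.98 and 16.04, and the shift was −0.03, with overlapping genotypes (p = 0.667, same exact test).

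**Figure D5:**
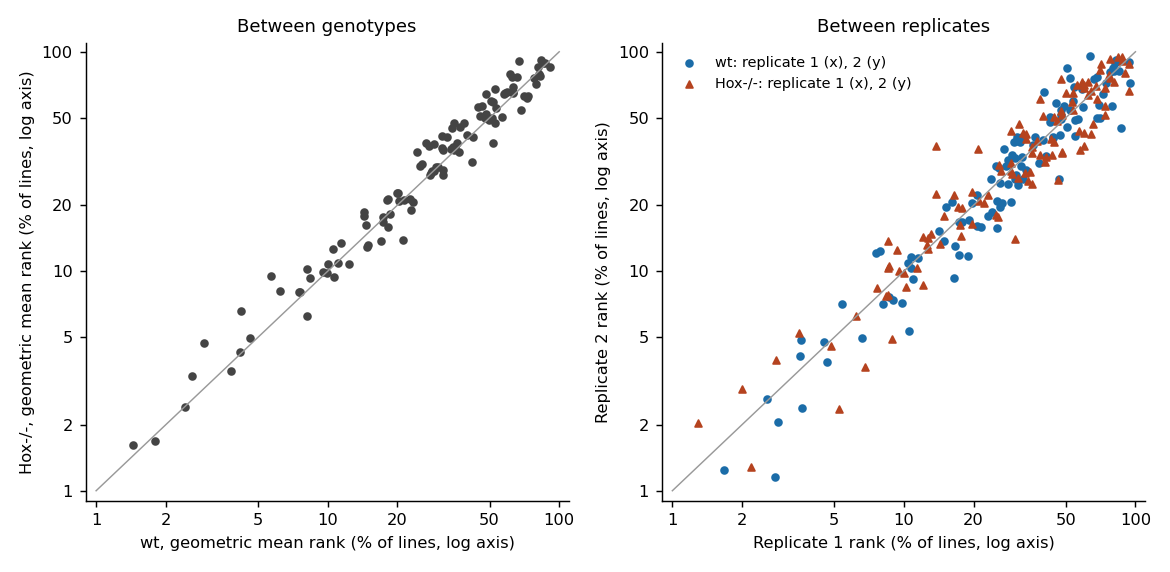
Ranks of the 113 regions of the protocadherin span called in all 4 libraries, in percent of the listed peaks on log axes, with the line of equal rank. The left panel sets the geometric mean rank of Hox-/- against that of wt, and the right panel replicate 2 against replicate 1 of each genotype. In both panels the regions lie along the line, from the strongest near 1% to the weakest near 100%.

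Genes around the clusters were read in the same way, beside the 58.2% of all starts that were called in all 4 libraries. Of the proteins known to regulate the clusters, among them CTCF, cohesin subunits, DNA methyltransferases and the silencing factors Smchd1 and Setdb1, 17 had a known strand, and 14 of these had a start peak in all 4 libraries. Ctcf ranked at 15.9%, 12.0%, 13.6% and 12.2%, Smc3 at 5.37%, 3.68%, 4.88% and 4.49%, and Smc1a at 2.54%, 2.66%, 2.95% and 2.87%. Both cohesin genes were stronger than most member starts in each library. Dnmt3b, which encodes a DNA methyltransferase active in early embryos, ranked at 42.3%, 40.6%, 64.9% and 32.1%. The 3 regulators without a peak at the annotated start in any library were Dnmt1, Dnmt3a and Wapl. Of the non-clustered protocadherins, relatives that lie outside these clusters, 7 of 9 with a known strand were called in all 4 libraries, with a median rank of 21.9% to 27.8%. Pcdh17 was the strongest of them at 2.84%, 2.2%, 1.95% and 2.17%, followed by Pcdh8 at 4.29%, 6.46%, 3.56% and 5.46%. Pcdh15 and Pcdh9 had no peak at the annotated start. Of the adhesion and signalling partners, 2 of 4 with a known strand were called in all 4 libraries, the kinase gene Fyn at 0.303%, 0.358%, 0.154% and 0.292%. No start of these lists was called by a whole genotype and missed by the other.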

How the data were processed

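ATAC-seq peak lists of 4 libraries, wt and Hox-/- mouse embryonic stem cells with 2 each, were read as the authors deposited them, 1 list per library. Per the submitters' processing notes, which give no role or setting, the build was mm10 and the tools were cutadapt 4.8, Bowtie2 2.5.0, Picard 2.18.2, bedtools 2.30.0, MACS2 2.2.9.1 and deepTools 3.5.4. How duplicate or multiply placed reads were handled, and whether reads were shifted for the transposase, is not given in the sources used here. Each deposited line holds an interval, the fold (ratio) of its summit over local background, a −log10 p, a −log10 q and the summit position. The fold and p-values are the authors' own per-peak values and were used only within a list. No line had a −log10 q under 1.30, so weaker peaks are unlisted.

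Peaks were ranked by −log10 p within a list, as a percent of its lines and, as an alternative added after the data were seen, by place in the list. The depth itself is unknown; relative depth and local background were recovered from fold and p under a Poisson model, in which 97.1% to 98.8% of lines could be used and all of these gave a whole pileup within 0.1%. Genes came from RefSeq GRCm38.p6, which gives ends but no strand or exons. Member starts were put at the lower coordinate: the higher ends of all Pcdha, and of all Pcdhg, members nearly coincide at the shared constant exons, and Pcdhb genes are known to have the same orientation. Strand for the 17491 background starts came from a RefSeq promoter table that holds no gene of chromosome 18, so no promoter sequence of a member was used and the planned description of promoter composition was not run. The first 2500 bp stood for a first exon. Regions are peaks of all 4 libraries merged where they overlapped by 1 bp.

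Genotypes were compared by two-sided exact permutation tests over the 4 libraries, whose smallest p is 0.333. Replicate numbers did not pair the libraries: same-numbered libraries had a correlation of deviations of 0.0036 over 122787 regions. Members named are all 58, with values in every library for those called at the start in all 4, C-type members, members called in 1 genotype alone and the 5 distal regions best in their worst library; for internal peaks, values are given for the stronger ones. Members and lists were chosen with earlier results of these data known. Scripts (Python 3.11.15, numpy 2.4.6, pandas 2.3.3, scipy 1.17.1) were tested on simulated data. Alternatives changed windows, thresholds, spans, overlap and libraries.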

Additional observations from a re-analysis of the deposited data

How the results depend on the processing

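Of 79 alternative values, 59 kept their direction or, for a count, stayed within 1.5 times, 16 moved and 4 reversed. Keeping a direction did not mean keeping the size. The difference in start peaks (−3.5 members, Hox-/- minus wt) was −6 at a −log10 q of at least 5, −1 among the 100000 strongest peaks, where the genotypes overlapped (exact permutation p = 1), 0 among the 50000 strongest, and −4.5 to −2.5 when 1 library was left out. The share of peaks in the span, 0.229 per 100000 higher in Hox-/-, turned to −0.608 with overlapping lines merged and to −1.60 at a −log10 q of at least 5, and was 1.02 without flanks and 2.97 among the 100000 strongest. Leaving out 1 library gave −4.83 to 5.29, with −2.13 without wt replicate 1 and −4.83 without Hox-/- replicate 1, so it has no stable sign. The rank shift, here wt minus Hox-/-, was between −0.19 and −0.16 without 1 library. It was −0.03 with overlapping genotypes by place in the list, a setting added after the data were seen. By place, members ranked above in both wt libraries numbered 7 in place of 15 and those ranked above in both Hox-/- libraries 9 in place of 4, and regions 13 in place of 26 and 24 in place of 11. The lists differ in length, which by construction moves percent ranks. Regions called in wt alone numbered 10 to 19 without 1 library, 19 without wt replicate 1, and those in Hox-/- alone numbered 2 to 5, and 0 at a −log10 q of at least 5. With fewer libraries a region has to meet fewer conditions. Distal regions numbered 25 when 2500 bp from a start was asked, which removes the 31 internal regions and 4 others, and 61 to 62 without 1 library. Members called at the start in wt alone numbered 5 where the interval had to cover the start base, and 1 member, Pcdhb10, was called in Hox-/- alone without Hox-/- replicate 2. Pcdhb15, Pcdhb17 and Pcdhb19 were among the wt members with each start window, at a −log10 q of at least 5 and without any 1 library, but 0 members were called in wt alone among the 100000 or the 50000 strongest peaks. Members with an internal peak numbered 31 for 1600 to 2700 bp and 27 for 1900 to 2400 bp, settings added after the data were seen.

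Replicate numbers were not found to pair the libraries. With the replicate block the start difference was −3.5, the span share 0.229 and the rank shift −0.10, which changed no call.

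Peaks weaker than the listing limit are unseen, and Hox-/- replicate 1 was the shallowest library. At a start without a listed peak, closed chromatin and a peak below that limit cannot be told apart. Without strand or exons for these genes, first exons were taken by length. The smallest p of 2 libraries against 2 is 0.333, above 0.05.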
